A study of Homo sapiens with 8 samples.

Results

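RNA of microvesicles shed by control HEK 293T cultures was compared with RNA of the lysates of the same cultures, in 4 of the 8 libraries of the series: control microvesicles I and II and control cell lysates I and II. The libraries were chosen by their labels alone. HEK 293T is a transformed line from human embryonic kidney. The control cultures were transfected with 2 constructs, GFP and GBP1-CD9, by lipofection. The other 4 libraries, microvesicles and lysates II and III of cultures that received GFP-C-YTHDF1 with GBP1-CD9, entered only the shared fit and the side comparison described last. Both kinds of culture therefore carried the CD9 fusion, and both were grown with exosome-depleted serum and RNase A in the medium. Microvesicles were collected from that medium by repeated ultracentrifugation with a filtration step. Every group is this 1 cell line under transient transfection, and no library of untransfected cells was analysed here.

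Microvesicles are membrane vesicles that bud outward from the plasma membrane, and they carry cytoplasmic RNA and protein out of the cell. CD9 is a tetraspanin of the plasma membrane and of extracellular vesicles. YTHDF1, absent from the control constructs, binds N6-methyladenosine in messenger RNA. SMART-Seq2, the library method, primes reverse transcription on poly(A) tracts, so spliced messenger RNA is the main product of an intact cell lysate.

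The deposited values were whole-number counts over 63568 annotated features, and the 1190053 counts of the series were all on chromosome 1, which has 5363 features. The features were drawn on hg19, but their counts matched known genes more closely when the same coordinate numbers were read on GRCh38. For 225 genes with known roles, the intervals that overlapped an exon of the gene at GRCh38 coordinates held 83003 counts of the control lysates, with a median of 46.5 counts an interval. The intervals that carried the gene's own label held 39899, with a median of 10.0, and only 28 intervals were in both sets. Each interval is therefore named here by the GENCODE 44 gene whose exons its numeric position overlaps most on GRCh38, and coordinates are given as the file has them. Of 967 tested intervals over exons, 555 overlapped a single gene and the rest more than 1. Neither the library kit nor the name rule uses strand, so a gene and its antisense partner, and near-identical copies such as pseudogenes, cannot be told apart.

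Before scaling, 2 intervals were left out, those labelled ENSG00000228794 and ENSG00000143514. They held 99589 of 238416 counts in control microvesicles I and 328141 of 479140 in control microvesicles II, against 48 and 138 counts in the lysates. The remaining totals were 109051 and 163019 counts in lysates I and II, and 138827 and 150999 in microvesicles I and II. Levels below are CPM, read counts relative to library size after TMM over the tested intervals, so each is relative to the rest of its library. A lower level cannot be split into fewer vesicles that carry a transcript and less of it per vesicle. Whether I and II were separate cultures is not in the labels, so every p-value reflects only how far these libraries differed, and that spread may be technical.

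The 2 kinds of RNA differed first in where their counts lay. Intervals outside every exon held 4.63% and 4.28% of the counts of lysates I and II, and 32.8% and 33.9% of those of microvesicles I and II. The groups did not overlap, with means of 4.45% ± 0.244 and 33.3% ± 0.782 (SD, n = 2 each), although an exact permutation test of 2 against 2 libraries cannot go below p = 0.333. With the 2 left-out intervals kept, the microvesicle mean was 14.9%. Within introns the share was 3.48% and 3.26% in the lysates and 21.1% and 19.2% in the microvesicles. Where no gene is annotated it was 1.14% and 1.02% against 11.6% and 14.7%. Intervals over exons of pseudogenes lay on the other side, with 21.9% and 24.1% of lysate counts and 7.43% and 4.36% of microvesicle counts. Intervals over exons of protein-coding genes held 67.3% and 65.7% in the lysates and 50.8% and 51.2% in the microvesicles. Those over exons of long non-coding RNAs held 6.05% and 5.81% against 8.97% and 10.6%. An interval is taken as over an exon from 1 base of overlap, so its counts may lie outside that exon.

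**Figure D1:**
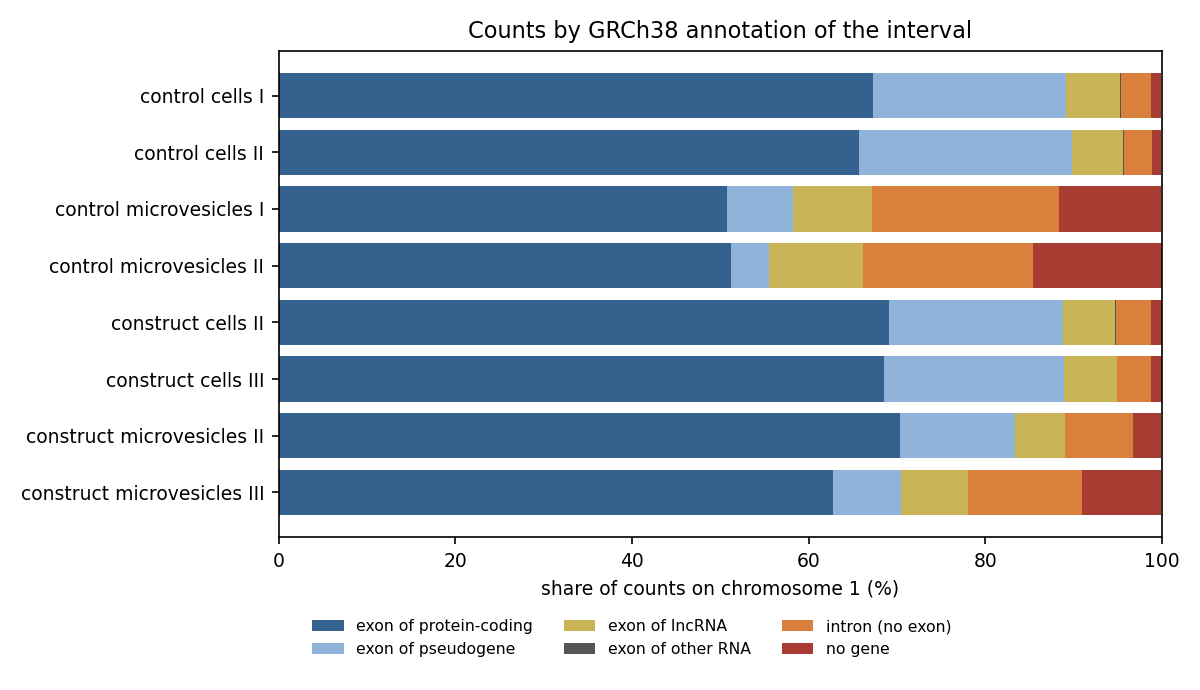
Share of chromosome 1 counts (%, horizontal axis) by GRCh38 annotation of the interval, 1 bar a library. Introns and positions with no gene make up 4.63% and 4.28% of the 2 control cell bars and 32.8% and 33.9% of the 2 control microvesicle bars, with the construct microvesicles in between at 10.9% and 21.9%.

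Counts in the microvesicles were also spread over more places. With every library thinned to 30552 counts, 1665 and 1557 intervals had a count in the lysates and 2320 and 2261 in the microvesicles. Most of that difference lay outside exons, where 596 and 534 intervals had a count in the lysates and 1161 and 1128 in the microvesicles. Over exons the numbers were 1069 and 1023 against 1159 and 1133. The most abundant intervals that together hold 50% of the counts, unthinned, numbered 50 and 45 in the lysates and 149 and 95 in the microvesicles. This depends on leaving out the 2 intervals. They held 99589 of 238416 counts in microvesicles I, and 328141 of 479140, more than 50%, in microvesicles II.

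The edgeR quasi-likelihood test, fitted to all 8 libraries with 4 groups, tested 1409 intervals. It called 159 higher in control microvesicles (11.3% of those tested) and 257 lower (18.2%) at an adjusted p of 0.05, or 29.5% in either direction. The groups did not overlap for 1090 intervals (77.4%). Among the 967 intervals over exons 87 were higher and 244 lower, and among the 442 outside exons 72 were higher and 13 lower. The median log2 fold change, microvesicles over lysates, was 0.78 over all tested intervals, -0.41 over exons and 2.04 outside them. Spearman's rho between log2 fold change and interval length was 0.363 over exons and 0.039 outside them. The part of length in the calls was not tested. The exon median depends on the scaling and changed sign with upper-quartile factors, to 0.28, and with library size alone, to 0.95. With those scalings the overall median was 1.46 and 2.11, and the calls were 349 higher with 211 lower and 421 higher with 159 lower. The share of calls that were higher thus went from 38.2% to 62.3% and 72.6%, and it was 52.0% with a filter of at least 10 counts in 2 control libraries and 52.3% with the R1 columns alone. In the 32 alternatives fitted by interval, which tested between 313 and 416 of the 416 called intervals, 0 of those tested changed sign. The choice of calls favoured this, as groups did not overlap for at least 155 of the 159 higher and 256 of the 257 lower. With counts summed per gene locus, 2 of the 331 exonic calls changed sign. One of them, EFCAB14, went from -6.37 to 0.34, and the sum did not pass (adjusted p = 0.780).

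The calls rest on both lysate libraries, and on a spread estimated over all 4 groups, construct libraries included. Their number fell less without 1 of the control microvesicle libraries than without 1 of the control lysates. Without lysate I edgeR called 0 higher and 59 lower, with 342 at an unadjusted p under 0.05, and without lysate II it called 0 higher and 43 lower, with 336. On the same 1409 intervals the counts were 5 and 105 without lysate I and 5 and 125 without lysate II. Leaving out 1 construct lysate also reduced the calls, with 2252 or 2249 intervals tested. The fall was smaller on the same 1409 intervals. By the series text each microvesicle library has its own lysate, which the numeral identifies. With culture as a replicate block the counts were 141 and 250, and in the 4 control libraries alone the block gave 51 and 155.

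**Figure D2:**
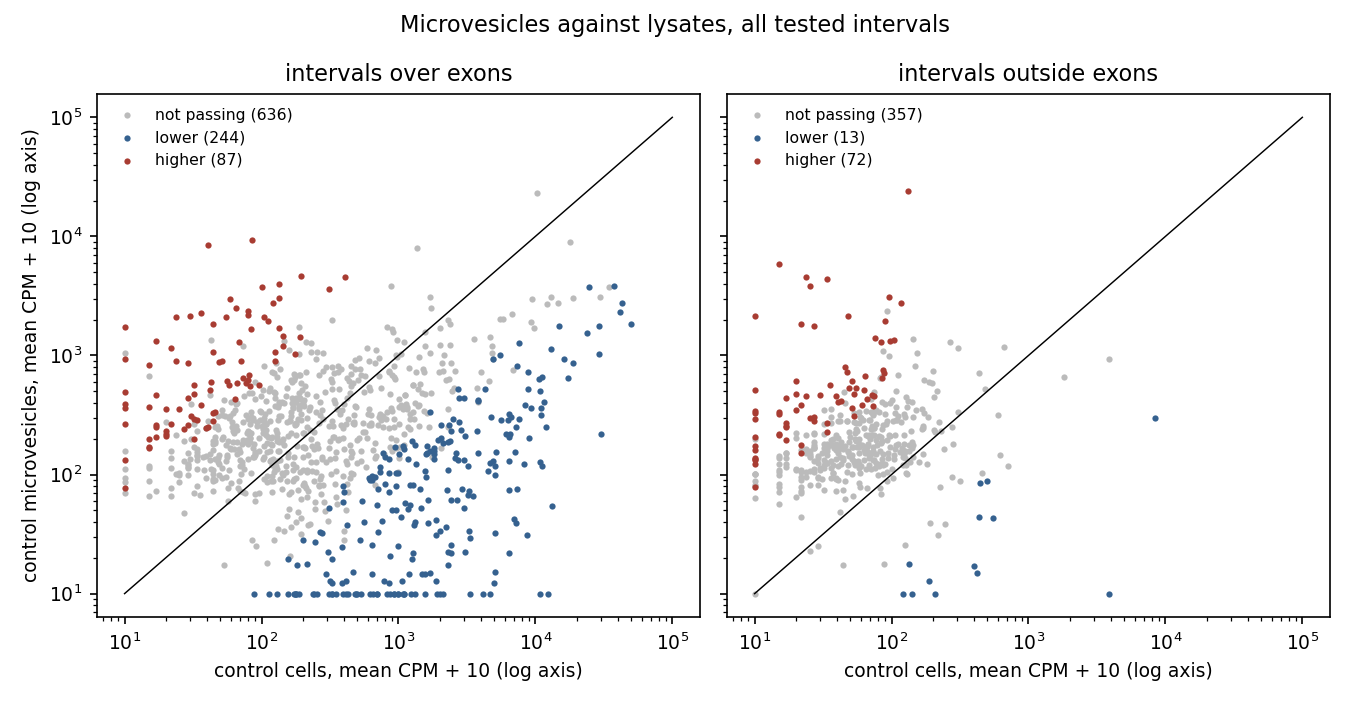
Mean CPM + 10 of the 2 control microvesicle libraries (vertical, log axis) against that of the 2 control lysates (horizontal, log axis), 1 point an interval, for 967 intervals over exons and 442 outside them; the line marks equality after TMM scaling. Points called lower lie mostly over exons, 244 against 13, and run down to a floor of 0 counts in microvesicles, while those called higher number 87 and 72.

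Genes of known function were described by list. The function lists had 132 tested intervals by position, of which 4 were higher and 50 lower, with a median log2 fold change of -1.99. Over all tested intervals 11.3% were higher and 18.2% lower, with a median of 0.78. All list intervals lie over exons, where 9.0% were higher and 25.2% lower, with a median of -0.41. The counts depended on the scaling: upper-quartile factors gave 9 higher and 42 lower among the 132, with a median of -1.29, and library size alone 11 and 32, with a median of -0.57. The lists were drawn up with earlier results of these data known. DESeq2 called 4 higher and 52 lower among them. In each list with 0 called higher by edgeR below, DESeq2 called 0 higher too, and 0 were higher at an unadjusted p under 0.05 apart from 1 in the cell cycle list, which limma-voom called. Without lysate I edgeR called 0 higher and 20 lower of the 132, and without lysate II 0 higher and 23 lower. The paired fit of the 4 control libraries called 1 higher and 24 lower. Of 47 list genes with a called interval, 5 also had a tested interval on the other side of 0 that did not pass: HNRNPU, NAV1, RBBP4, TPM3 and VPS45.

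Mitochondrial proteins, made in the nucleus and imported, had 8 of 12 intervals lower, 0 higher, and a median of -3.68. MRPS14, a protein of the small subunit of the mitochondrial ribosome, stood farthest apart. An interval of 1023 bases that lies wholly in its exons (chr1:175013762-175014784) held 850 and 1264 counts in lysates I and II and 0 in both microvesicle libraries. That is at least 772-fold lower against a floor of 3 counts a library (edgeR adjusted p = 0.00358). TIMM17A, a channel subunit of the inner membrane translocase, had 314 and 562 lysate counts and 5 and 4 in microvesicles (chr1:201951500-201975275). Its log2 fold change was -7.73 ± 1.06 (SE, adjusted p = 0.00267), a 225-fold lower level. Further TIMM17A intervals were among the 8 as well. One of them held 194 and 481 lysate counts against 133 and 37, only 9.20-fold lower. Summed over the TIMM17A locus the log2 fold change was -4.83 (adjusted p = 0.00564). MRPL24, of the large mitochondrial ribosomal subunit, shared its interval with HDGF. The counts there were 151 and 272 against 16 and 5 (log2 fold change -5.53 ± 1.09, adjusted p = 0.00588), or 47.7-fold lower in CPM and 91.4-fold without microvesicles I. At the intervals of MRPS14 and MRPL24 and the first of TIMM17A, the lysate libraries were well above both microvesicle libraries.

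Cell cycle and chromatin genes had 8 of 14 intervals lower, 0 higher, and a median of -4.37. RBBP4, a histone chaperone of the chromatin assembly and NuRD complexes, gave 4 of the 8. Its 3011 exonic bases in 1 interval (chr1:32680073-32687972) had 507 and 582 lysate counts and 30 and 19 in microvesicles, a log2 fold change of -5.72 ± 0.98 (adjusted p = 0.00362). Another RBBP4 interval, of 92 exonic bases, held 24 and 30 against 161 and 50 and did not pass. The interval over TTF2, a transcription termination factor, had 62 and 97 counts against 0 and 0, at least 57.9-fold lower (adjusted p = 0.00291), but with all counts at the TTF2 locus summed the log2 fold change was -3.17 and did not pass (adjusted p = 0.0928). In all 8 both microvesicle libraries lay below both lysates in CPM.

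Translation factors and tRNA synthetases had 7 of 16 intervals lower, 0 higher, and a median of -1.27, which was 0.12 with library size alone. SERBP1, an mRNA-binding protein that associates with ribosomes, had 1490 and 1702 counts in the lysates and 234 and 118 in the microvesicles, over an interval shared with IL12RB2. The log2 fold change was -4.45 ± 0.86 (adjusted p = 0.00539). SARS1, the cytosolic seryl-tRNA synthetase, had 609 and 938 against 18 and 56, or 47.0-fold lower (adjusted p = 0.00840), with 30.2-fold from microvesicles II alone and 106-fold from microvesicles I alone. YARS1, the tyrosyl-tRNA synthetase, had 261 and 376 against 58 and 32 (16.8-fold lower, adjusted p = 0.0108). The list of cytosolic ribosomal proteins had only 3 tested intervals, 2 over RPL11 and 1 over RPL22. For these 3 the calls were 0 by edgeR and DESeq2 and 1 by limma-voom, and 1 had an unadjusted p under 0.05. RPL11 held 799 and 1324 lysate counts and 575 and 505 microvesicle counts in its larger overlap, a log2 fold change of -2.19 ± 0.97 (adjusted p = 0.106).

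Splicing and RNA-binding genes had 6 of 13 intervals lower, 0 higher, and a median of -2.92. SF3A3, a subunit of the U2 snRNP, had 469 and 642 counts against 61 and 25. The log2 fold change was -4.94 ± 1.01 (adjusted p = 0.00691), or 31.0-fold in CPM and 49.0-fold without microvesicles I. HNRNPU, a nuclear RNA-binding protein, had 17 and 39 against 0 and 0 in an interval of 291 exonic bases, at least 19.8-fold lower (adjusted p = 0.00496). A second HNRNPU interval, with 309 exonic bases, held 8 and 16 against 124 and 38, a log2 fold change of 1.51 that did not pass. Summed over the HNRNPU locus the value was -0.30 (adjusted p = 0.832). Proteasome and ubiquitin genes had 5 of 18 lower and 1 higher, with a median of -1.97, and only 1 lower in the paired fit of the 4 control libraries and 1 without lysate I and, separately, without lysate II. Over all tested exonic intervals 25.2% were lower and 9.0% higher, so the calls of this list stood near those shares. PSMB4, a beta subunit of the proteasome core, had 1650 and 2421 counts against 136 and 456 in an interval shared with POGZ (15.5-fold lower, adjusted p = 0.0127), with 9.80-fold from microvesicles II alone and 37.1-fold from microvesicles I alone. The 1 called higher, named after its values were seen, overlapped UBR4, a large ubiquitin ligase, by 182 bases and had 0 and 1 lysate counts against 33 and 30. DESeq2 did not call it.

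Stress response genes had 4 of 9 intervals lower, 0 higher, and a median of -1.80. ATF3, a transcription factor induced by many stresses, had 785 and 1052 lysate counts and 0 in both microvesicle libraries over 543 exonic bases (chr1:212606229-212619714), at least 677-fold lower (adjusted p = 0.00588). DNAJC8, a J-domain protein found with the spliceosome, had 837 and 1073 against 10 and 32. It was 104-fold lower (adjusted p = 0.00424), with 66.2-fold from microvesicles II alone and 239-fold from microvesicles I alone. Of the 4 tested metabolic intervals 3 were lower and 0 higher. CTPS1, which makes CTP, had 548 and 683 counts against 1 and 10 (adjusted p = 0.00293), a 251-fold lower level that was 137-fold from microvesicles II alone and 1545-fold from microvesicles I alone. GLUL, glutamine synthetase, had 151 and 246 against 2 and 1, a ratio of 311 with a 95% exact counting interval of 106 to 1513 (adjusted p = 0.00378).

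The membrane and cytoskeletal lists also had calls in both directions, at shares not far from those of the other intervals. Over all tested intervals 18.2% were lower and 11.3% higher, and over exons 25.2% and 9.0%. The membrane, trafficking and vesicle list had 4 of 18 intervals lower and 1 higher, with a median of -0.50, close to the median of -0.41 over exons. The median changed sign with upper-quartile factors, to 0.21, and with library size alone, to 0.93, and each of those scalings called 1 lower and 1 higher. By edgeR, 0 were called in either direction in the paired fit of the 4 control libraries or without lysate I or lysate II, while 1 higher and 5 lower had an unadjusted p under 0.05 in the fit of 8 libraries and DESeq2 called the same numbers. VPS45, a regulator of endosomal membrane fusion, had 737 and 1094 lysate counts against 115 and 133 (17.1-fold lower, adjusted p = 0.00986), while a second VPS45 interval held 12 and 14 against 61 and 60 and did not pass. The 1 called higher overlapped TSPAN2, a tetraspanin like CD9, by only 84 bases and also lies over SYCP1, a gene of meiotic chromosomes. It had 14 and 7 lysate counts and 473 and 130 in microvesicles, a log2 fold change of 3.46 ± 1.09 (adjusted p = 0.0379), or 11-fold in CPM, 16.8-fold from microvesicles I alone, 5.20-fold from microvesicles II alone and 20.6-fold without lysate I. The median of the cytoskeleton and lamina list was 0.78, the same as over all tested intervals but above the -0.41 over exons. The list had 3 of 18 lower and 2 higher. With library size alone it had 1 lower and 5 higher, and without lysate I or, separately, lysate II it had 1 lower and 0 higher. TPM3, a tropomyosin of non-muscle actin filaments, had 155 and 307 counts against 56 and 4 (18.5-fold lower, adjusted p = 0.0305), with 9.99-fold from microvesicles I alone and 124-fold from microvesicles II alone, over 202 exonic bases. A second TPM3 interval, with 1301 exonic bases, held 16 and 14 against 83 and 180, a log2 fold change of 1.88 that did not pass (adjusted p = 0.123). Summed over the TPM3 locus the value was -1.91 (adjusted p = 0.0965). ARPC5, a subunit of the actin-branching Arp2/3 complex, was 1 of the 2 higher, with 1 and 0 lysate counts against 58 and 44, a ratio of 43.4 (95% exact counting interval 7.62 to 1732, adjusted p = 0.0192) that was 18.3 without lysate II and at least 8.38 without lysate I. Of 3 tested histone intervals edgeR and DESeq2 called 0, with 1 lower at an unadjusted p under 0.05, and limma-voom called 2 lower.

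GAS5, the host transcript of a cluster of small nucleolar RNAs, was the only snoRNA host tested. Its 4932 exonic bases in 1 interval held 2623 and 3779 counts in the lysates and 1109 and 454 in the microvesicles. It was 9.80-fold lower in CPM (log2 fold change -3.29 ± 0.89, adjusted p = 0.0219) and 15.5-fold without microvesicles I. GAS5 thus had counts in both microvesicle libraries, where MRPS14 and ATF3 had 0.

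**Figure D3:**
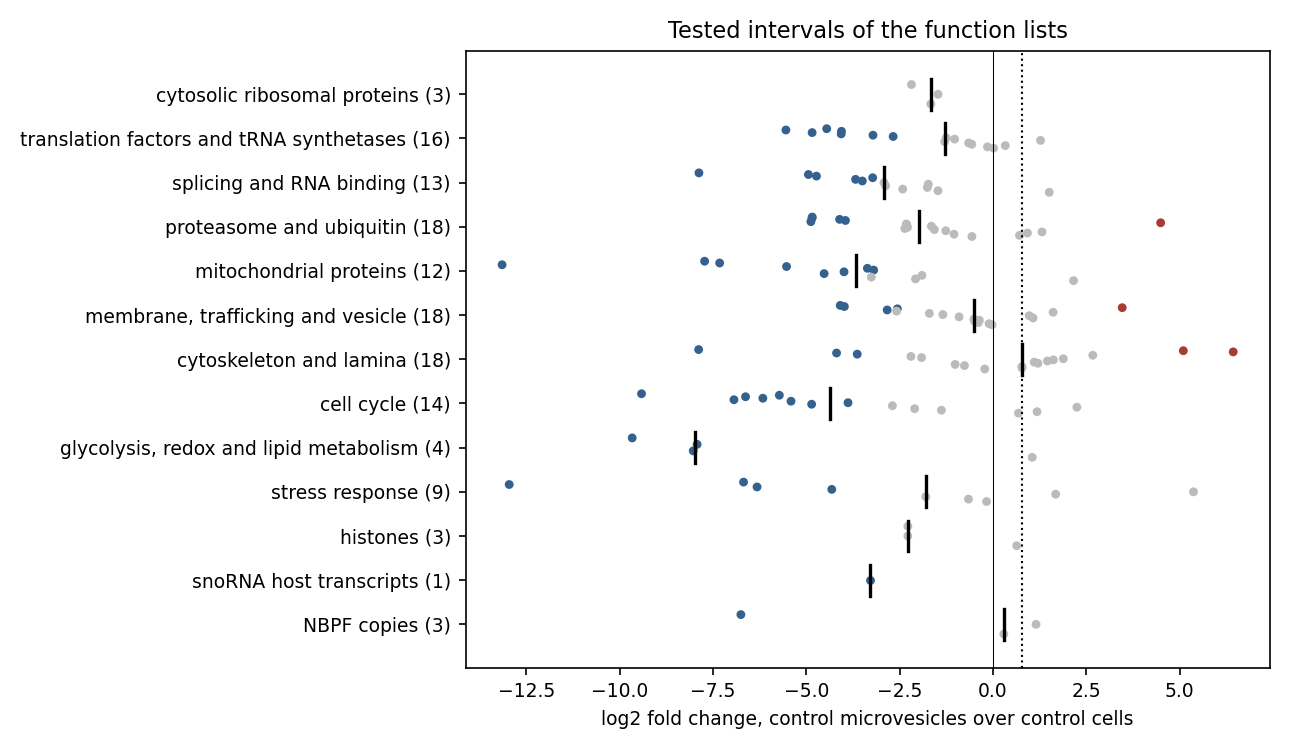
Log2 fold change of control microvesicles over control cells (horizontal axis) for each tested interval of 13 function lists, with the number of intervals in parentheses; blue was called lower, red higher and grey not called, the thick bars are list medians and the dotted line is the median of all 1409 intervals, 0.78. List medians run from -7.98 for metabolism, over 4 intervals, to 0.78 for cytoskeleton and lamina, and 50 of the 132 points are blue.

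The 12 intervals over genes with the largest lower fold, by the lower lysate library against the higher microvesicle library, were led by MRPS14, ATF3 and OAZ3. In 11 of them both microvesicle libraries had 0 counts. The OAZ3 interval also lies over MRPL9, another mitochondrial ribosomal protein, and held 337 and 455 lysate counts (at least 292-fold lower, adjusted p = 0.00267). Its log2 fold change was -11.75, against -6.01 (adjusted p = 0.00244) summed over the OAZ3 locus. ARID4B, a subunit of a histone deacetylase complex, had 133 and 194 lysate counts (at least 120-fold), TIPRL, a regulator of type 2A phosphatases, 104 and 162 (at least 96.8-fold), and SLC39A1, a zinc importer, 97 and 111 (at least 77.6-fold). MPZL1, a cell surface glycoprotein, had 100 and 278 (at least 132-fold, and 87.2-fold without lysate II). A second MPZL1 interval was also lower, and another held 3 and 7 lysate counts against 33 and 56 and did not pass. The adjusted p of these 4 lay between 0.00291 for SLC39A1 and 0.00774 for TIPRL. FAM133FP, FEN1P1, ADH5P2, SHMT1P1 and the overlap of ENSG00000286015 with AHCYP8 are pseudogene loci, where reads of a parent gene elsewhere may lie. Of these 5, FAM133FP had 310 and 394 lysate counts and FEN1P1 242 and 330, against 0 in both microvesicle libraries, while SHMT1P1 had 318 and 551 against 1 and 0, a ratio of 2041 (95% exact counting interval 365 to 80692) that was 1082 without microvesicles II and at least 319 without microvesicles I.

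The 12 intervals named as higher had between 19 and 711 counts in each microvesicle library. WNT9A, a secreted Wnt ligand, had 0 counts in both lysates and 117 and 244 in microvesicles over 3141 exonic bases (chr1:227918126-227923112). That is at least 22.1-fold higher (log2 fold change 9.42 ± 1.87, adjusted p = 0.00713), and at least 13.2-fold without microvesicles II. Summed over the WNT9A locus the log2 fold change was smaller, 4.76 (adjusted p = 0.0212), so the 0 lysate counts hold for this interval only. ADGRB2, an adhesion receptor of the brain, had 0 and 4 lysate counts and 441 and 417 in microvesicles (chr1:31732417-31769662), a log2 fold change of 6.53 ± 1.36 (adjusted p = 0.00832). Its CPM was 106-fold higher, and 52.9-fold without lysate I. Without lysate II, where the remaining lysate had 0 counts, it was at least 51.4-fold. Only 509 of the 4011 bases of this interval overlap ADGRB2 exons.

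An interval over ENSG00000233542 that also overlaps GABRD, a GABA receptor subunit, and PRKCZ, an atypical protein kinase C, had 2 and 7 lysate counts and 691 and 499 in microvesicles (chr1:1981909-2116834). It was 59.8-fold higher (log2 fold change 5.83 ± 0.99, adjusted p = 0.00358), and 106-fold without lysate II. TP73, a relative of p53, had 0 and 1 against 66 and 251 with only 78 exonic bases in the interval, a ratio of 135 (95% exact counting interval 24.1 to 5349, adjusted p = 0.00714). It was 78.1 without lysate I, 228 without microvesicles I and 53.0 without microvesicles II. Without lysate II, where the remaining lysate had 0 counts, it was at least 19. Summed over the TP73 locus the log2 fold change was 4.99 (adjusted p = 0.0133), against 6.87 for the interval. DMRTB1, a transcription factor of germ cells, had 1 and 3 against 110 and 110 (24.9-fold higher, adjusted p = 0.00671, and 39.6-fold without lysate II). PLCH2, a phospholipase C, had 0 and 0 against 159 and 40 (at least 11.5-fold, and 17.9-fold from microvesicles I or 5.10-fold from microvesicles II), and a second PLCH2 interval had 0 and 0 against 0 and 644. CMPK1, a nucleotide kinase, had 0 and 0 against 139 and 22 (at least 9.24-fold, and 15.7-fold from microvesicles I or 2.80-fold from microvesicles II), but summed over the CMPK1 locus the log2 fold change was 1.94 and did not pass (adjusted p = 0.143). RGS7, a G protein regulator of neurons, had 0 and 0 against 19 and 29 (at least 2.92-fold), with 43 exonic bases of 572. Exonic bases were 1335 of 8305 for DMRTB1, also over GLIS1, 590 of 6137 for PLCH2 and 205 of 1192 for CMPK1. The other 4 were 3 loci of long non-coding RNA, LINC01783, ENSG00000223779 and ENSG00000288531, and the overlap of ENSG00000286989 with MIB2, a ubiquitin ligase. Of these ENSG00000288531 did not pass when summed per locus (adjusted p = 0.0529). In all 12 the lysates stood at 7 counts or fewer in each library, and groups did not overlap, as the rule for naming required.

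**Figure D4:**
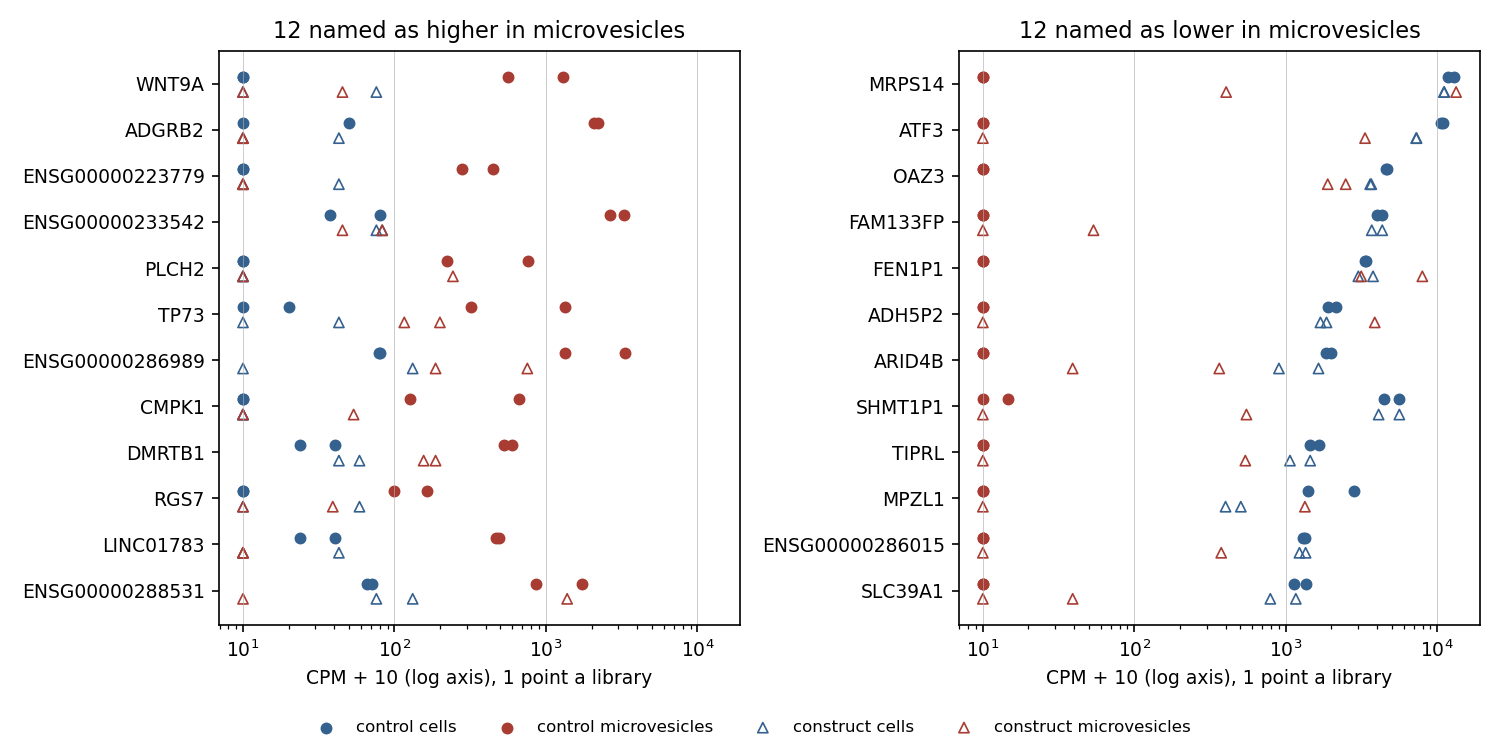
CPM + 10 (log axis) of the 24 named intervals in every library, with control cells and control microvesicles as filled circles and the construct libraries as open triangles; a point at 10 had 0 counts. In the right panel 11 of 12 genes had 0 counts in both control microvesicle libraries. Construct microvesicles reach the level of the construct lysates for MRPS14, FEN1P1, ADH5P2 and MPZL1 in at least 1 library.

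The highest microvesicle levels were partly outside genes. The naming rule takes only intervals over genes, so the following were chosen after their values were seen. The interval with the highest mean CPM in control microvesicles (chr1:879584-894689) overlaps no GRCh38 gene. It held 6 and 16 lysate counts and 3249 and 6121 microvesicle counts, a log2 fold change of 7.58 ± 1.17 (adjusted p = 0.00291), or 195-fold in CPM and 125-fold without microvesicles II. An interval in an intron of PKP1, a desmosomal plaque protein, held 0 counts in both lysates and 627 and 254 in microvesicles, at least 51.6-fold higher (adjusted p = 0.00490) and at least 32.4-fold without microvesicles I. Another in an intron of LINC01397 held 2 and 2 against 589 and 1115, 181-fold higher (adjusted p = 0.00358) and 115-fold without microvesicles II. An interval in an intron of VWA5B1 held 2 and 0 against 406 and 1345, a ratio of 373 (95% exact counting interval 103 to 3081). It was 157 without lysate II, 610 without microvesicles I and 163 without microvesicles II. Without lysate I, where the remaining lysate had 0 counts, it was at least 144. In all 4, each microvesicle library was far above both lysates.

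Among the exonic intervals with high microvesicle levels, also named after their values were seen, some were set by 1 library. PRSS38, a serine protease gene, held 5 and 8 lysate counts and 27 and 3521 in microvesicles, and LINC02812 held 3 and 2 against 10 and 3210. Their folds of 125 and 276 fell to 1.69 and 1.52 without microvesicles II. By contrast PTPN14, a phosphatase of the Hippo pathway, whose interval also overlaps CENPF, held 29 and 39 against 808 and 1010. It was 11.5-fold higher (log2 fold change 3.52 ± 0.84, adjusted p = 0.0128), with close values in both microvesicle libraries. NBPF15, of a repeated gene family, held 710 and 1068 against 4529 and 4648, a log2 fold change of 1.15 ± 0.77 that did not pass (adjusted p = 0.248).

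The microvesicle libraries resembled each other less than the lysates did. Over the 1409 tested intervals Spearman's rho between libraries I and II was 0.916 for the lysates and 0.50 for the microvesicles, as a description across intervals that share both libraries. Of 226 intervals with at least 1000 CPM in both lysates, 0 differed by more than 4-fold between lysates I and II, a property that the choice of these intervals favours. Between microvesicles I and II 54 differed by more than 4-fold and 12 by more than 16-fold, with 10 CPM added to each level. Their median absolute log2 ratio was 0.18 in lysates and 1.03 in microvesicles. In these 226, chosen for a high lysate level, 149 were called lower, 15 had 0 counts in both microvesicle libraries and 13 had 0 in exactly 1. MRPL55, a mitochondrial ribosomal protein named after its values were seen, had 1940 and 3203 counts in the lysates, but 1315 in microvesicles I and 3 in microvesicles II, a log2 fold change of -3.26 ± 1.62 that did not pass (adjusted p = 0.138). Only 35 intervals reached 1000 CPM in both microvesicle libraries. Of these 16 did so in both lysates as well, 16 were called higher, 2 lower, and 7 lay outside exons.

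**Figure D5:**
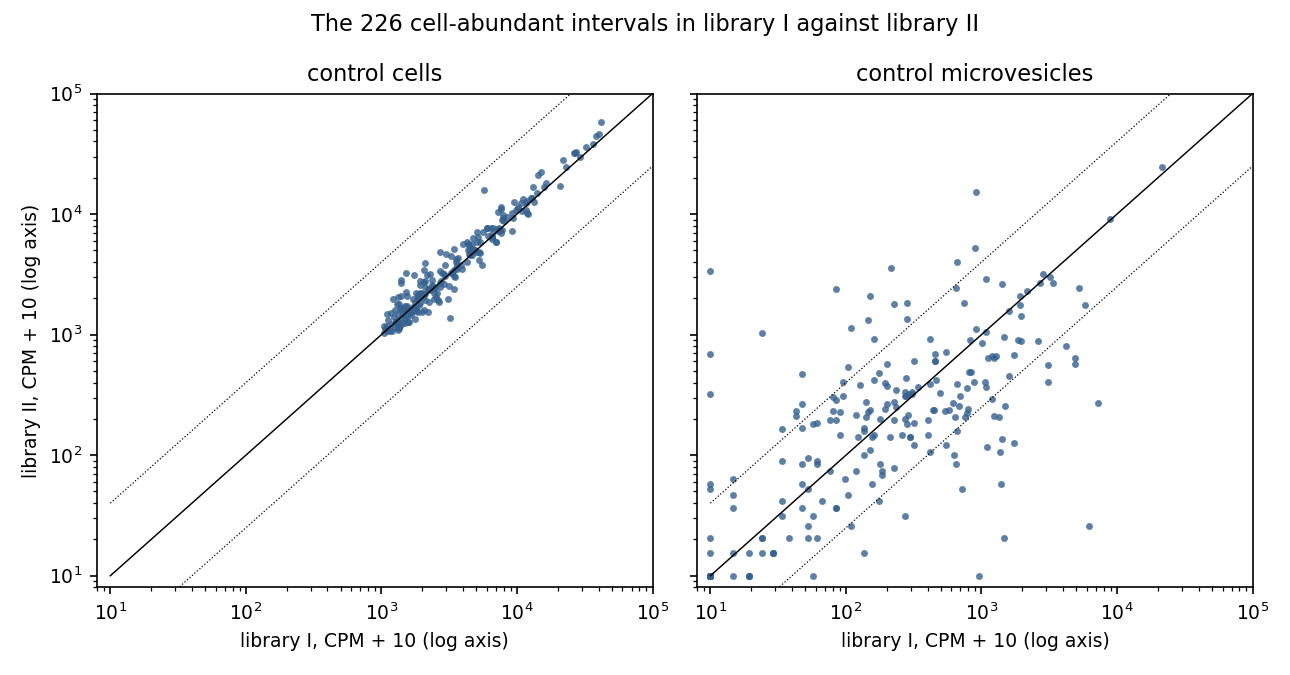
Library II against library I, CPM + 10 on both log axes, for the 226 intervals with at least 1000 CPM in both control lysates; the solid line is equality and the dotted lines mark a 4-fold difference. The lysates keep within the dotted lines, as their choice favours, while 54 intervals leave them in the microvesicles, and points at 10 had 0 counts.

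Markers of other cell types held small shares of both kinds of RNA. Only some had an interval named for them, 6 of 17 leukocyte and 3 of 15 keratinocyte genes. The numbers were 2 of 8 for fibroblast, 2 of 6 for erythroid and 3 of 4 for platelet markers. The shares cover those genes only. The leukocyte list held 0.0972% and 0.105% of lysate counts and 0.217% and 0.223% of microvesicle counts, the highest of the 6 marker lists, with 5 of its 17 genes counted in each lysate and 6 in each microvesicle library. Within it PTPRC, the leukocyte common antigen, had 59 and 108 lysate counts over 555 exonic bases against 27 and 11, a log2 fold change of -3.35 ± 0.96 (adjusted p = 0.0261). The other 2 tested leukocyte markers were on the other side of 0 and did not pass. LCK, a T cell kinase, had 12 and 14 against 114 and 128 (log2 fold change 1.97, adjusted p = 0.124), and CSF3R, a growth factor receptor of neutrophils, 29 and 44 against 125 and 117 (0.51, adjusted p = 0.644). The CSF3R interval also overlaps OSCP1 and has only 257 exonic bases of 21248. The median of the 3 tested leukocyte markers was 0.51. The fibroblast list held 0.00642% and 0.00123% of lysate counts and 0.0692% and 0.0285% of microvesicle counts, and its 1 tested interval, over DDR2, a collagen receptor, did not pass (log2 fold change 1.43 ± 1.09, adjusted p = 0.301). Platelet markers held 0.00642% and 0.0110% against 0.0331% and 0.0450%, erythroid markers 0.0110% and 0.0159% against 0.0425% and 0.0258%, keratinocyte markers at most 0.00993% in any control library, and no interval was named for a hepatocyte marker, although 1 tested interval named for another gene overlapped an exon of one (log2 fold change 0.91). Their part in the differences above was not tested. The viral genes that define HEK 293T are not on chromosome 1, so the identity of the line was not checked here.

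Set beside the construct cultures, the control cultures had more called differences. The same fit called 6 intervals higher (0.426%) and 64 lower (4.54%) in construct microvesicles against construct lysates. Of the lower intervals 54 were called in both cultures, which is 21% of the control list and 84.4% of the construct list, and 3 higher ones were, 1.89% and 50.0%. The construct libraries had fewer counts, 30552 and 45946 in microvesicles and 42908 and 58637 in lysates, and the part of depth in these numbers was not tested. The interaction in the same fit, which compares the microvesicle to lysate ratio of control and construct cultures, called 1 interval with a higher ratio in control cultures (0.0710%) and 19 with a lower one (1.35%). Of 2 tested intervals over FLAD1, which makes the cofactor FAD, the one with more counts held 936 and 1348 lysate counts and 12 and 6 microvesicle counts in control cultures. In construct cultures that interval held 372 and 541 in lysates and 1259 and 1106 in microvesicles, so that the groups stood in the opposite order (interaction -9.44 on the log2 scale, adjusted p = 0.00876). The difference within construct cultures did not pass by itself (log2 fold change 1.25, adjusted p = 0.372). MRPS14, at 0 in both control microvesicle libraries, had 376 and 27 counts in construct microvesicles II and III (interaction -12.45, adjusted p = 0.0374). With any 1 of the 4 lysate libraries left out edgeR called 0 interactions in either direction, with 104 to 109 at an unadjusted p under 0.05.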

How the data were processed

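Per the labels' protocols, total RNA of HEK 293T lysates and microvesicles was made into libraries with SMART-Seq2 and Nextera, which do not mark strand. The authors deposited whole-number read counts. featureCounts 1.6.4 made them from GENCODE 19 features with strand setting 2, per the file headers, after alignment by STAR to hg19, per the submitters' processing notes. Each library has an R1 and an R2 column, which were summed; 0 columns of per-sample values were left unused. Chromosome 1 rows were kept and 2 intervals left out before scaling.

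Intervals were placed on GRCh38 exons of GENCODE 44 by their numeric coordinates, with at least 1 base of overlap. Counts were tested with edgeR 4.0.16 (quasi-likelihood, TMM, filterByExpr) on all 8 libraries as 4 groups, adjusting by Benjamini-Hochberg across the 1409 tested intervals. Residual degrees of freedom were 4, prior degrees 7.14 and the common BCV 0.669. SE was taken as log2 fold change over the root of F. Because all 4 groups share 1 estimate of spread, and lysates vary less than microvesicles, p-values of this comparison may be too small or too large.

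Totals after the 2 intervals were left out ran from 30552 to 163019 counts. Folds against a group with 0 counts use a floor of 3 counts a library, and intervals and floors cover counting error only. Pairing comes from the series text; within pairs, departures from the group mean correlated at 0.0236 (control) and -0.0278 (construct) over 1409 intervals. The script was tested on simulated data.

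Named intervals were, in each direction, the 12 over exons with the largest fold of the lower library of the higher group over the higher library of the lower group (0.5 count added), among calls with groups apart and at least 100 CPM, 1 for each gene. In each of 21 lists up to 4 members with the smallest p were examples. The libraries, lists and rules were chosen with earlier results of these data known. Alternatives were other scalings and filters, DESeq2 1.42.0, limma-voom (limma 3.58.1), each column alone, thinning, sums per GRCh38 locus, the control libraries alone, the replicate block and each library left out.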

Additional observations from a re-analysis of the deposited data

Results flagged for a closer look

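The interaction test of the 8-library edgeR fit found 20 intervals whose microvesicle to lysate ratio differed between control and construct cultures, and each is given here as the control log2 ratio minus the construct one, with no explanation weighed. Only 1 of the 20 was higher in control cultures: an interval over NOC2L, a nucleolar protein, at 10.06, where control microvesicles held 311 and 213 counts and construct microvesicles 0 and 0. The other 19 were lower in control cultures.

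Mitochondrial proteins among them were MRPS14 at -12.45, TIMM17A at -5.97, SLC25A44, a carrier of the inner membrane, at -6.80, and the interval over OAZ3 and MRPL9 at -11.01. FLAD1 was at -9.44 and BOLA1, a protein of iron-sulfur cluster assembly, at -7.88, with 16 and 5 counts in control microvesicles against 385 and 512 in construct microvesicles. RNA processing genes were LSM10, of the U7 snRNP, at -7.96, and KTI12, of tRNA modification, at -10.94. Others were PUSL1, a pseudouridine synthase-like protein, at -7.73, and RPF1, of ribosome production, at -5.56. Several of these intervals also lie over other genes, so the gene that gave the counts is not certain. That of LSM10 lies over STK40, KTI12 over TXNDC12 and BTF3L4, PUSL1 over ACAP3 and SLC25A44 over PMF1. UBE2J2, a ubiquitin-conjugating enzyme, was at -5.48, and RABIF, a chaperone of Rab GTPases, at -9.22. B3GALT6, a galactosyltransferase of proteoglycan synthesis, was at -6.83 in an interval shared with SDF4. DEDD, a death effector domain protein, had 2 intervals, at -8.75 and -8.01, with only 42 and 150 exonic bases. S100PBP, with 89 exonic bases in an interval shared with YARS1, was at -7.43 and the pseudogene FEN1P1 at -11.99. ENSG00000272030 was at -6.57 and an interval in an intron of ENSG00000227722 at -10.65. In the last of these, control microvesicles held 0 and 0 counts and construct microvesicles 131 and 72.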

How the results depend on the processing

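In the 32 settings fitted by interval 0 calls changed sign, of the 313 to 416 of 416 that each tested. The choice of calls favoured this. Summed per locus, 2 of 331 changed sign. The higher calls were 349 with upper-quartile factors, 421 with library size alone, 268 with the filter of 10 counts, 283 with limma-voom and 51 with the replicate block in the 4 control libraries alone; the lower calls were 159 with library size alone, 142 after thinning and 155 with that block. Leaving out 1 of the 8 libraries gave 0 to 172 higher and 43 to 299 lower, and on the same 1409 intervals, an alternative chosen after seeing the data, 5 to 238 higher and 105 to 334 lower (85 higher without construct lysate II and 85 without III, 125 lower without control lysate II). The replicate block over 8 libraries gave 141 and 250, DESeq2 176 and 263, and the 2 intervals kept 175 and 232.

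The interactions numbered 3 higher with R2 alone and 12 lower with upper-quartile factors, and 0 to 8 higher and 0 to 59 lower with 1 library left out; the replicate block gave 1 and 20. The share of counts outside exons in control microvesicles was 14.9% with the 2 intervals kept, and with whole gene spans in place of exons it was 13.1% against 1.08% in lysates. Among the genes named or used as examples, values that did not pass the test changed sign in some settings. RUSC1 was 0.40 with library size alone, and NBPF13P -0.15 without microvesicles II on the same intervals. TDRKH was -0.36 and -0.59 without microvesicles II, 3.67 without microvesicles I and -0.23 when summed per locus. For EPB41 the first of 2 intervals was -0.12 without microvesicles I, and the second 0.25 with upper-quartile factors, 0.90 with library size alone, 0.38 and 0.13 without lysate II, 0.25 and 0.06 without microvesicles I, -0.87 without microvesicles II and 0.09 per locus. The cause of these moves was not tested. With 2 libraries a group and at most 163019 counts in each, small differences in intervals of few counts may not have been detectable.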
